A study of Rattus norvegicus with 6 samples.

Results

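The genes described are 10 that make, use or break down nitric oxide and cyclic GMP: Nos3, Nos2, Gucy1a1, Gucy1b1, Prkg1, Pde5a, Pde3a, Arg1, Arg2 and Ddah1. They were taken by gene symbol from a table of 23802 genes measured by polyA RNA sequencing of whole rat lung. All 10 symbols were found, on 11 loci, and for Nos2, which has 2 loci, the one with the higher mean count was used. The samples are 3 lungs of rats given 1 dose of 60 mg/kg monocrotaline (MCT) and 3 of rats given saline, all male wild-type Sprague-Dawley rats of 200 to 250 g, at 4 weeks; no age is stated. MCT is a plant alkaloid that injures lung vessels and serves as a rat model of pulmonary arterial hypertension. Its route is intraperitoneal in one label and subcutaneous in another, while saline was given subcutaneously. The labels do not say whether a sample is 1 animal or a pool, so the p-values cover only how these libraries vary, and some of that variation may be technical.

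Nitric oxide is made from arginine by the nitric oxide synthases, and in lung vessels the endothelial enzyme is its usual source. It diffuses into smooth muscle and activates soluble guanylate cyclase, a dimer of an alpha and a beta subunit, and the cyclic GMP that forms relaxes the muscle through protein kinase G until phosphodiesterases break it down. Arginases draw on the same arginine, dimethylarginine dimethylaminohydrolase removes a natural inhibitor of the synthases, and drugs that block phosphodiesterase 5 or stimulate the cyclase are used to treat pulmonary arterial hypertension.

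Summed counts were between 13525912 and 17916134 per sample. The first principal component of log2 CPM held 56.9% of the variance and placed MCT samples between -63.6 and -24.2 and controls between 37.0 and 45.0, with MCT replicate 2 nearest to the controls. Transcripts of lung epithelium were abundant in every sample, Sftpc (surfactant protein C) averaging 9723 FPKM in MCT lungs and 14712 FPKM in control lungs. FPKM is a read count scaled to transcript length and library size, and CPM is a count scaled to library size alone. Among markers of other lung cells, 0 of 10 tested alveolar epithelial genes were higher and 3 lower in MCT, 2 of 10 fibroblast genes were higher and 2 lower, and 0 of 7 airway genes were called. Over the whole table of 15250 tested genes, 13.1% were called at an adjusted p under 0.05 (edgeR quasi-likelihood test), 8.01% higher and 5.11% lower in MCT.

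All 10 genes passed the filter on low counts. Arg1 rose in MCT lungs, Pde3a fell, and the other 8 were not called, so 2 of 10 were called against a background of 13.1%, and this count does not set the genes apart from the table. Their median log2 fold change was 0.02, against -0.01 over all tested genes. In 5 of the 10 the 3 MCT samples did not overlap the 3 controls in CPM, which held for 35.4% of all tested genes. Those 5 were Arg1, Nos3 and Nos2, with higher values in MCT, and Pde3a and Pde5a, with lower ones.

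**Figure D1:**
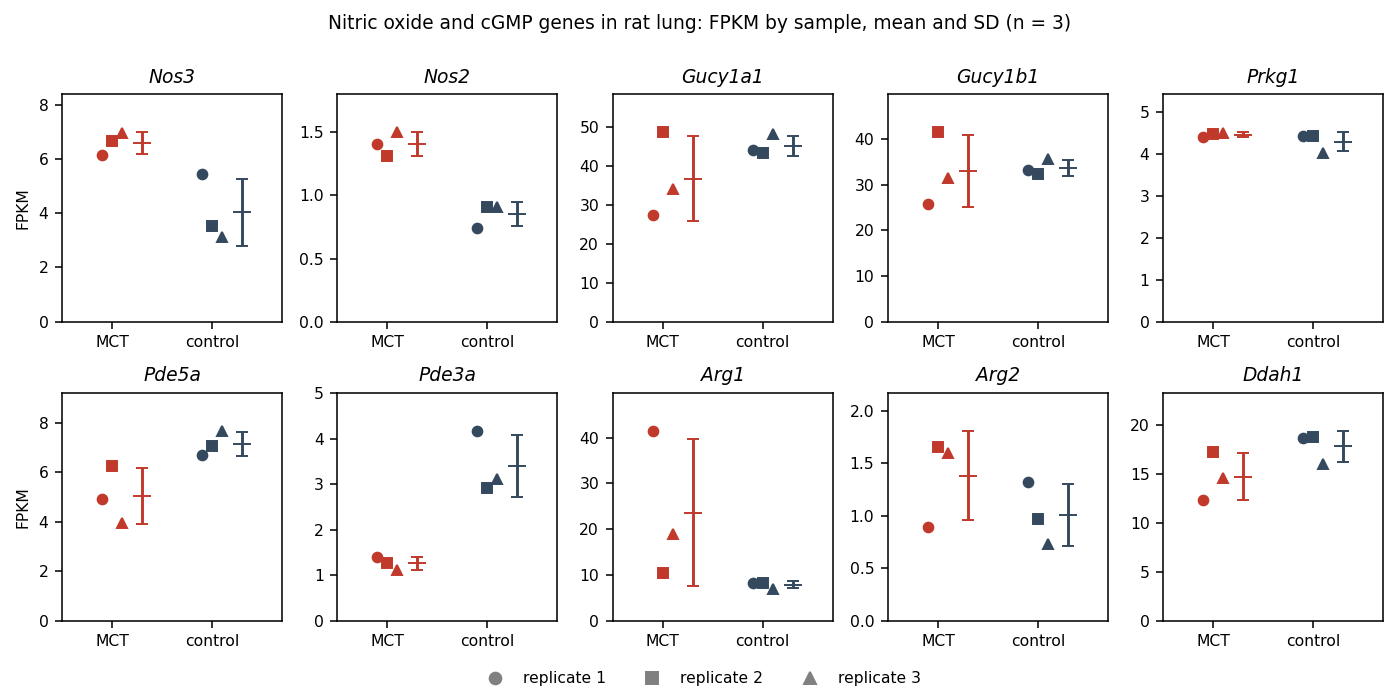
FPKM of the 10 genes in each sample, with MCT on the left and control on the right of each panel; marker shape gives the replicate, and the bar beside the points is the mean with its SD (n = 3). Pde3a lies between 1.12 and 1.41 FPKM in MCT lungs, below the lowest control at 2.91, while Prkg1 lies between 4.03 and 4.51 FPKM in all samples.

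**Figure D2:**
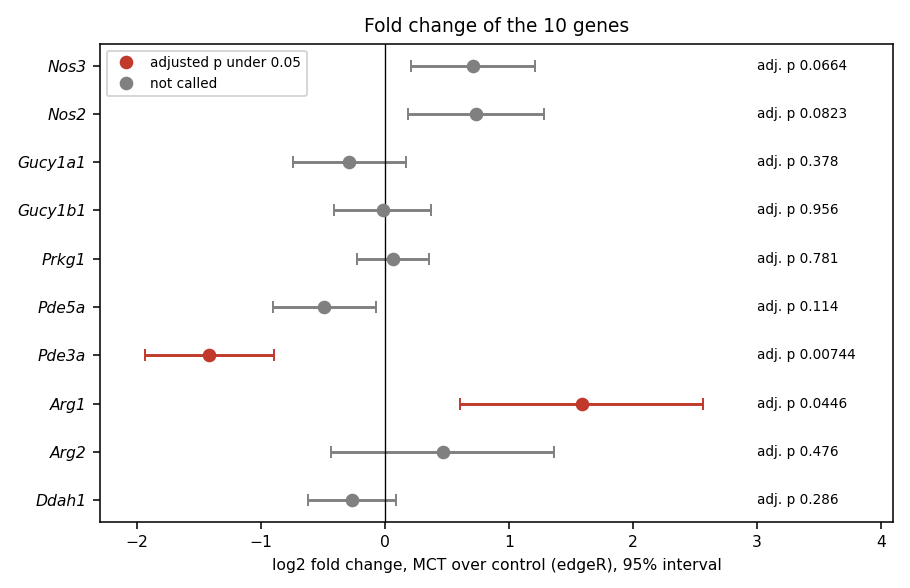
The log2 fold change of MCT over control for the 10 genes, with the 95% interval from the edgeR fit and the adjusted p at the right. The 2 genes in red, Pde3a at -1.42 and Arg1 at 1.59, are called at an adjusted p under 0.05.

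RefSeq promoter sequences of build GRCr8, from 250 bases before to 50 bases after the gene's start, were matched by symbol for 7 of the 10 genes. They are shown for the cyclase subunits, which lie next to each other on chromosome 2, and for the phosphodiesterases, since the levels within these pairs are compared further on. Capitals mark the motifs CCAAT or GGGCGG on either strand. In Gucy1a1 one match of each overlap.
Gucy1a1, chr2:169779574-169779873, minus strand: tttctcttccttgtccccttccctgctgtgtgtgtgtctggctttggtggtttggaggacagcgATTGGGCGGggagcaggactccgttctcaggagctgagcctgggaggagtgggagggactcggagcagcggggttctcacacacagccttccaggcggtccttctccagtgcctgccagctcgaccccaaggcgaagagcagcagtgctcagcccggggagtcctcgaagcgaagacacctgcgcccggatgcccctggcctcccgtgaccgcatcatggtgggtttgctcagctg
Gucy1b1, chr2:169696938-169697237, minus strand: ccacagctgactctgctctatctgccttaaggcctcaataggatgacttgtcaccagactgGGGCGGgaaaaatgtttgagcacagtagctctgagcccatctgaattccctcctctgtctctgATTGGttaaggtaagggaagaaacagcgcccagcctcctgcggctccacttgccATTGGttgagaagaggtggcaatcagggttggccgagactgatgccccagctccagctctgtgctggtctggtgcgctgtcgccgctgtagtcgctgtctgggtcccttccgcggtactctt
Pde3a, chr4:175904026-175904325, plus strand: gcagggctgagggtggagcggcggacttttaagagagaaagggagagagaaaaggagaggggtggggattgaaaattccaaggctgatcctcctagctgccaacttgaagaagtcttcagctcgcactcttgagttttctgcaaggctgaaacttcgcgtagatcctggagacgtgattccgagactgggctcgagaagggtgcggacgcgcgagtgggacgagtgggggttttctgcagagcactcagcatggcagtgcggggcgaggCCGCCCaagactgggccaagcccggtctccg
Pde5a, chr2:213543776-213544075, plus strand: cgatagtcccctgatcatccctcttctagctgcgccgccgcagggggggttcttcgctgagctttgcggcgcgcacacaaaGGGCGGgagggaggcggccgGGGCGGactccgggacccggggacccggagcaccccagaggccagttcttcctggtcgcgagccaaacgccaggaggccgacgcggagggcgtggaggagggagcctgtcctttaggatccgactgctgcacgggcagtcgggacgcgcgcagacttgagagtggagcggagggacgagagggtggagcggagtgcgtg
The cyclase promoters both held CCAAT, at 1 place in Gucy1a1 and 2 in Gucy1b1, and both held GGGCGG at 1 place. Neither phosphodiesterase window held CCAAT, and GGGCGG stood at 1 place in Pde3a and 2 in Pde5a. Of the 33469 promoters of this length, 37.5% held CCAAT and 33.1% held GGGCGG. The motif TATAAA, held by 14.2% of promoters, was in none of the 7 windows. The same was true of TGACGT, held by 7.94% of promoters.

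The nitric oxide synthases had higher values in MCT lungs and missed the threshold. Nos3, the endothelial synthase (ENSRNOG00000009348), stood at 6.15, 6.66 and 6.95 FPKM in MCT lungs, against 5.45, 3.52 and 3.13 FPKM in control lungs. All MCT samples lay above all controls, with control replicate 1 nearest to them. The fold was 1.64 (95% interval 1.16 to 2.32), or 0.71 on the log2 scale with an SE of 0.22 (edgeR, adjusted p = 0.0664). It was called if control replicate 1 was left out, at 1.02 (adjusted p = 0.0125), by DESeq2 (adjusted p = 0.0223) and by limma-voom (adjusted p = 0.0470).

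Of 15 tested endothelial markers, 0 rose and 5 fell, and they summed to 1308 to 2046 FPKM in MCT lungs and 1921 to 2156 FPKM in control lungs. Tek, the angiopoietin receptor, had a log2 fold change of -2.38 and the phosphatase gene Ptprb -1.53, both called, while Cldn5, the most abundant, had -0.37 and was not (edgeR, adjusted p = 0.306). The only endothelial markers with a positive value were Emcn at 0.32, Pecam1 at 0.17 and Vwf at 0.002, none of them called. In bulk tissue, fewer cells of a type and less RNA per cell cannot be told apart. The mean log2 CPM of the 15 markers had a difference of -0.58, MCT minus control. Relative to it Nos3 was higher in MCT lungs by 1.33, with -2.10, -2.66 and -2.17 there, against -3.15, -3.82 and -3.96 in control lungs. The groups did not overlap (two-sided exact permutation test, p = 0.1, the smallest that 3 samples against 3 allow, and 0.225 adjusted over 18 such comparisons). The genes most like Nos3 over the 6 samples, by Pearson r of log2 CPM, were Rpn2 (0.997), Alg8 (0.996) and Slc24a5 (0.995), and the 6 points share library depth and group.

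Nos2, the synthase induced during inflammation (ENSRNOG00000057443), was among the 3 least abundant of the 10 genes. It stood at 1.41, 1.31 and 1.50 FPKM in MCT lungs, against 0.74, 0.91 and 0.91 FPKM in control lungs, on 71, 77 and 74 counts in MCT lungs, against 39, 42 and 56 counts in control lungs. The groups did not overlap, and the log2 fold change of 0.73 with an SE of 0.24 was not called (edgeR, adjusted p = 0.0823). An assembled locus that also carries this symbol had 10, 22 and 21 counts in MCT lungs and 25, 22 and 12 in control lungs. With both loci summed the log2 fold change was 0.51 (adjusted p = 0.179). Of 11 tested macrophage markers 10 rose, and relative to their mean Nos2 was lower in MCT lungs, at -1.09 in log2 CPM, without overlap (two-sided exact permutation test, p = 0.1). The ratio of Nos2 to Nos3 in FPKM was 0.229, 0.197 and 0.216 in MCT lungs, against 0.136, 0.259 and 0.291 in control lungs, and the groups overlapped.

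Among regulators of the synthases 2 of 10 tested genes rose and 0 fell. Prmt1, a methyltransferase of the kind whose products release the inhibitor dimethylarginine, had 74.5, 70.0 and 62.9 FPKM in MCT lungs, against 51.3, 43.1 and 56.5 FPKM in control lungs, and rose 1.38-fold (edgeR, adjusted p = 0.0460). All MCT samples lay above all controls. Leaving out any 1 sample ended the call (adjusted p = 0.0726 to 0.134), as did no filter (adjusted p = 0.0528), both FPKM scales and the replicate block. Cav1, the caveolin that binds and restrains the endothelial synthase, had 239, 564 and 334 FPKM in MCT lungs, against 674, 526 and 645 FPKM in control lungs. MCT replicate 2 lay among the controls, and Cav1 was not called at -0.69 (adjusted p = 0.161), but was at -1.10 if that sample was left out (adjusted p = 0.0143). That was the only 1 of 17 alternatives to call Cav1.

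Ddah1 (ENSRNOG00000014613), which degrades that inhibitor, stood at 12.4, 17.2 and 14.5 FPKM in MCT lungs, against 18.7, 18.7 and 16.0 FPKM in control lungs. The groups overlapped, and the log2 fold change was -0.27 with a 95% interval of -0.62 to 0.09 (edgeR, adjusted p = 0.286). Its sister gene Ddah2 had 41.5, 52.9 and 38.7 FPKM in MCT lungs, against 54.5, 59.1 and 63.1 FPKM in control lungs. Its log2 fold change of -0.41 was not called (adjusted p = 0.0913), though it was if MCT replicate 2 was left out (adjusted p = 0.0194), and under no other of 17 alternatives. The ratio of Ddah1 to Nos3 was 2.01, 2.58 and 2.09 in MCT lungs, against 3.43, 5.32 and 5.11 in control lungs. It was lower in each MCT sample than in each control, with a log2 difference of -1.02 (two-sided exact permutation test, p = 0.1, and 0.225 adjusted over 9 ratios). Relative to the mean of the endothelial markers Ddah1 was higher in MCT lungs by 0.30, without overlap, at the same p. Ddah1 itself was lower there by 0.28 in log2 CPM, and the marker mean was lower by 0.58.

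Arg1, the cytosolic arginase best known from liver and from alternatively activated macrophages (ENSRNOG00000013304), rose in MCT lungs with a wide spread. It stood at 41.4, 10.3 and 18.9 FPKM in MCT lungs, against 8.31, 8.24 and 6.93 FPKM in control lungs. All MCT samples lay above all controls, replicate 1 far above the rest and replicate 2 just above the highest control. The rise was 3.01-fold, 1.59 on the log2 scale with an SE of 0.43 (edgeR, adjusted p = 0.0446). If MCT replicate 1 was left out the log2 fold change was 0.91 and the call ended, as it did if any 1 other sample but MCT replicate 2 was left out (adjusted p = 0.0735 to 0.143) and by limma-voom (adjusted p = 0.105).

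MCT replicate 1 was also the sample with the highest level of leukocyte markers. Macrophage markers summed to 1320.3, 761 and 855 FPKM in MCT lungs, against 266, 241 and 239.9 FPKM in control lungs. Neutrophil markers summed to 3982, 908 and 1705 FPKM in MCT lungs, against 159, 259.9 and 112 FPKM in control lungs. The macrophage sum was higher in every MCT sample than in every control. The neutrophil sum was too, but Lcn2 was most of it in each MCT sample (2854, 804 and 1624 FPKM), and with Lcn2 left out it was 1128, 104 and 80.5 FPKM in MCT lungs, against 63.6, 97.5 and 54.3 FPKM in control lungs, with overlap and with MCT replicate 1 far above the rest. The complement genes C1qa and C1qc had log2 fold changes of 2.35 and 2.42, and of 10 neutrophil markers 1 rose, Lcn2, which epithelium also makes, at 4.06. Marco, a scavenger receptor of alveolar macrophages, had at most 4 counts in MCT lungs and was at 0 in control lungs. Relative to macrophage markers Arg1 had a difference of -0.44 in log2 CPM (two-sided exact permutation test, p = 0.4), and relative to neutrophil markers 0.28 (exact permutation p = 0.6). The groups overlapped in both. The part of leukocyte content in the level of Arg1 was not tested beyond these values.

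Arg2, the mitochondrial arginase of many tissues (ENSRNOG00000053811), stood at 0.89, 1.65 and 1.60 FPKM in MCT lungs, against 1.32, 0.97 and 0.73 FPKM in control lungs. Its groups overlapped, on 20 to 43 counts per sample, and the log2 fold change was 0.46 with a 95% interval of -0.44 to 1.36 (edgeR, adjusted p = 0.476). The ratio of Arg1 to Arg2 was 46.5, 6.25 and 11.8 in MCT lungs, against 6.30, 8.49 and 9.49 in control lungs, with overlap (two-sided exact permutation test, p = 0.3). The ratio of Arg1 to Nos3 was 6.73, 1.55 and 2.71 in MCT lungs, against 1.52, 2.34 and 2.21 in control lungs, also with overlap (exact permutation p = 0.4).

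Genes of arginine transport and synthesis and of the synthase cofactor tetrahydrobiopterin had 3 of 12 tested members higher and 0 lower. Gch1, the first and rate-limiting enzyme of cofactor synthesis, had 26.1, 11.6 and 27.9 FPKM in MCT lungs, against 9.20, 8.68 and 8.55 FPKM in control lungs, and rose 2.49-fold (edgeR, adjusted p = 0.0240). Replicate 2 was again the MCT sample nearest to the controls. The amino acid transporter gene Slc7a7 had 26.4, 22.6 and 32.0 FPKM in MCT lungs, against 14.0, 14.5 and 10.7 FPKM in control lungs, and rose 2.08-fold (adjusted p = 0.00961). Slc7a1, which carries arginine into cells, had 3.10, 2.39 and 3.32 FPKM in MCT lungs, against 1.85, 1.42 and 1.35 FPKM in control lungs, and rose 1.91-fold (adjusted p = 0.0213). The groups did not overlap in either. Leaving out any 1 sample but MCT replicate 2 ended the call of Gch1 (adjusted p = 0.0576 to 0.0916), leaving out MCT replicate 1 or 3 or control replicate 2 or 3 ended that of Slc7a1 (adjusted p = 0.0600 to 0.0862), and Slc7a7 was called with any 1 sample left out. Gch1 also lost its call by limma-voom (adjusted p = 0.0574). Slc3a2, a partner chain of several amino acid transporters, had -0.07 (adjusted p = 0.827), a sign that turned if MCT replicate 1 (0.05) or control replicate 1 (0.02) was left out.

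Of the listed enzymes of ornithine and polyamine metabolism, 2 of 11 tested rose and 0 fell. Some of them, Agmat included, are not downstream of arginase, for which the list is named. Odc1, ornithine decarboxylase, had 129.7, 119 and 144 FPKM in MCT lungs, against 79.7, 47.1 and 51.2 FPKM in control lungs, and rose 2.20-fold (edgeR, adjusted p = 0.0126). Agmat, named for agmatinase, had 1.15, 1.10 and 1.22 FPKM in MCT lungs, against 0.35, 0.50 and 0.41 FPKM in control lungs, and rose 2.76-fold (adjusted p = 0.0300). All MCT samples lay above all controls in both. Agmat had 25, 28 and 26 counts in MCT lungs, against 8, 10 and 11 in control lungs. It passed the filter on low counts through the MCT samples, and the control levels alone would not have passed. The call of Odc1 ended if control replicate 2 or 3 was left out (adjusted p = 0.0530 to 0.0588), and that of Agmat with any 1 sample left out (adjusted p = 0.0508 to 0.120), with no filter (adjusted p = 0.0517) and under the replicate block. Amd1 had 0.57 on the log2 scale (adjusted p = 0.0573), called if MCT replicate 2 (adjusted p = 0.0193) or control replicate 1 (adjusted p = 0.0465) was left out. DESeq2 called it as well (adjusted p = 0.0211). Sat1, the most abundant, had 0.40 (edgeR, adjusted p = 0.138).

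Transcripts of the cyclase subunits were not called, while their ratio was lower in every MCT sample than in every control. Gucy1a1 (ENSRNOG00000012302) and Gucy1b1 (ENSRNOG00000012060), the alpha 1 and beta 1 subunits, had the highest mean FPKM of the 10 genes. Gucy1a1 stood at 27.4, 48.5 and 34.0 FPKM in MCT lungs, against 44.0, 43.3 and 48.0 FPKM in control lungs. MCT replicate 2 was the highest of all samples and the other MCT samples were below the controls. Its log2 fold change was -0.29 with a 95% interval of -0.74 to 0.17 (edgeR, adjusted p = 0.378), and if MCT replicate 2 was left out it was called at -0.55 (adjusted p = 0.0385). Gucy1b1 stood at 25.9, 41.5 and 31.5 FPKM in MCT lungs, against 33.2, 32.3 and 35.6 FPKM in control lungs. Its groups overlapped, at -0.02 with a 95% interval of -0.41 to 0.37 (adjusted p = 0.956), and the sign turned if MCT replicate 1 (0.14) or 3 (0.02) was left out.

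The ratio of Gucy1a1 to Gucy1b1 in FPKM was 1.06, 1.17 and 1.08 in MCT lungs, against 1.32, 1.34 and 1.35 in control lungs. The controls lay close together and every MCT sample lay below them. The log2 ratio was 0.138 ± 0.0761 in MCT lungs and 0.419 ± 0.0145 in control lungs (SD, n = 3 each; difference -0.28, two-sided exact permutation test, p = 0.1, and 0.225 adjusted over 9 ratios). Over the 6 samples Gucy1a1 had a Pearson r of 0.892 with Gucy1b1, rank 88 of 11154 genes with a symbol and a mean of at least 5 CPM. The genes most like Gucy1b1 were Car4 (0.988), Nrarp (0.981) and Rbms2 (0.979).

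**Figure D3:**
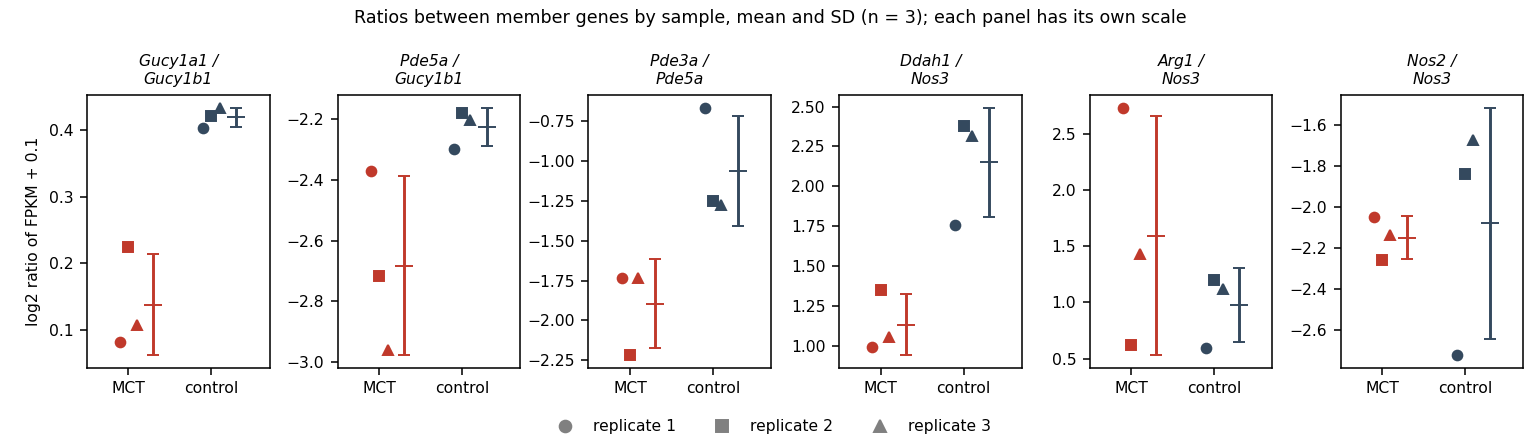
Log2 ratios of FPKM (with 0.1 added) for 6 pairs of genes in each sample, MCT on the left and control on the right, with the mean and SD (n = 3); each panel has its own scale. Gucy1a1 over Gucy1b1, Pde5a over Gucy1b1, Pde3a over Pde5a and Ddah1 over Nos3 separate the groups, and Arg1 over Nos3 and Nos2 over Nos3 do not. The rest of the 9 ratios, Prkg1 over Gucy1b1, Arg2 over Nos3 and Arg1 over Arg2, also overlapped and are not drawn. No adjusted p over the 9 was below 0.225 (two-sided exact permutation tests).

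The other route to cyclic GMP runs through receptors of the natriuretic peptides. Of 6 tested genes in a list of that system and other cyclase genes, a soluble cyclase subunit among them, 0 rose and 1 fell. Mme, the peptidase neprilysin, which degrades these peptides, had 16.4, 13.9 and 11.2 FPKM in MCT lungs, against 27.0, 19.3 and 24.4 FPKM in control lungs, a 1.68-fold fall (edgeR, adjusted p = 0.0286). The call ended if MCT replicate 3 or control replicate 1 or 3 was left out (adjusted p = 0.0743 to 0.0912). Npr1, the receptor guanylate cyclase for these peptides, had 23.8, 38.5 and 29.6 FPKM in MCT lungs, against 52.4, 53.3 and 42.0 FPKM in control lungs. Its groups did not overlap, and the log2 fold change of -0.68 was not called (adjusted p = 0.0571), though it was if MCT replicate 2 was left out (adjusted p = 0.0170) and by DESeq2 (adjusted p = 0.0122). Npr3, the clearance receptor, had 0.21 (adjusted p = 0.716), and was called at 0.74 if control replicate 1 was left out (adjusted p = 0.0458). No other of 17 alternatives called Npr3, and its sign turned (-0.012) if control replicate 2 was left out.

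Prkg1, the cyclic GMP-dependent protein kinase that carries the signal in smooth muscle, had nearly the same level in all samples. It stood at 4.41, 4.47 and 4.51 FPKM in MCT lungs, against 4.43, 4.42 and 4.03 FPKM in control lungs. The log2 fold change was 0.06 (edgeR, adjusted p = 0.781), with a 95% interval of the fold between 0.855 and 1.28. This value rests on an assembled-transcript locus that carries the symbol through a match to a bat protein, so other parts of the gene may not be counted in it. Relative to smooth muscle markers, of which 5 of 12 tested rose, Prkg1 had a difference of -0.48 in log2 CPM, with overlap (two-sided exact permutation test, p = 0.2).

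Among targets of the kinase and cyclic GMP transporters 1 of 13 tested genes rose and 0 fell. Kcnmb1, the smooth muscle subunit of the large-conductance calcium-activated potassium channel, had 4.28, 2.45 and 3.27 FPKM in MCT lungs, against 0.65, 1.23 and 1.41 FPKM in control lungs, and rose 2.91-fold (edgeR, adjusted p = 0.0339). All MCT samples lay above all controls, and the call ended if any 1 sample but MCT replicate 2 was left out (adjusted p = 0.0612 to 0.110) or the replicate block was used (adjusted p = 0.0716). Pln, the phospholamban gene, had 1.05 on the log2 scale (adjusted p = 0.0565), called if MCT replicate 2 (adjusted p = 0.0392) or control replicate 3 (adjusted p = 0.0410) was left out. It was also called by DESeq2 (adjusted p = 0.00995), with no filter (adjusted p = 0.0496) and under the replicate block (adjusted p = 0.0370). Gtf2ird1 had -0.64 (adjusted p = 0.0600), called if MCT replicate 2 was left out (adjusted p = 0.0438) and by DESeq2 (adjusted p = 0.0307). Vasp, a long-used marker substrate of the kinase, had 0.14 (edgeR, adjusted p = 0.487).

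Both phosphodiesterases had lower transcript levels in MCT lungs, and Pde3a was called. Pde3a encodes phosphodiesterase 3A, which breaks down cyclic AMP and is inhibited by cyclic GMP, and it is known from cardiac muscle, vascular smooth muscle and platelets. Its level (ENSRNOG00000025042) was 1.41, 1.26 and 1.12 FPKM in MCT lungs, against 4.17, 2.91 and 3.11 FPKM in control lungs, on 71, 74 and 55 counts in MCT lungs, against 219, 135 and 191 counts in control lungs. All MCT samples lay below all controls. It fell 2.67-fold, with a log2 fold change of -1.42 and an SE of 0.23 (edgeR quasi-likelihood test, adjusted p = 0.00744).

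Pde5a encodes phosphodiesterase 5A, which is specific for cyclic GMP and is the target of sildenafil. Its level (ENSRNOG00000014443) was 4.92, 6.23 and 3.96 FPKM in MCT lungs, against 6.68, 7.07 and 7.66 FPKM in control lungs. The groups did not overlap, but the highest MCT sample, replicate 2, lay close to the lowest control. The log2 fold change was -0.49 with a 95% interval of -0.91 to -0.07, and it was not called (edgeR, adjusted p = 0.114). If MCT replicate 2 was left out it was called, at -0.68 (adjusted p = 0.0312). The genes most like Pde5a over the 6 samples were Hyal1 (0.997), Ncor1 (0.993) and Micb (0.991).

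The ratio of Pde3a to Pde5a in FPKM was 0.287, 0.202 and 0.283 in MCT lungs, against 0.624, 0.412 and 0.406 in control lungs. Its log2 difference was -0.83, without overlap (two-sided exact permutation test, p = 0.1, and 0.225 adjusted over 9 ratios). The ratio of Pde5a to Gucy1b1, the enzyme that removes cyclic GMP over a subunit of the one that makes it, was 0.190, 0.150 and 0.126 in MCT lungs, against 0.201, 0.219 and 0.215 in control lungs. Its groups did not overlap either, with MCT replicate 1 close to control replicate 1 and a log2 difference of -0.46, at the same p.

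Levels of markers for the cells known for these enzymes are set beside them. Smooth muscle markers summed to 815 to 1264 FPKM in MCT lungs and 632 to 707 FPKM in control lungs, with 5 of 12 tested higher and 0 lower. Relative to their mean Pde3a had a difference of -1.92 in log2 CPM and Pde5a -1.05, each without overlap (two-sided exact permutation tests, p = 0.1, and 0.225 adjusted over 18 comparisons). Relative to 11 pericyte markers, of which 0 were higher and 1 lower, the differences were -1.41 for Pde3a and -0.54 for Pde5a, at the same p. Platelet markers summed to 25.0 to 29.9 FPKM in MCT lungs and 21.2 to 30.9 FPKM in control lungs, and 1 of 7 tested was lower. A cardiac muscle list, chosen after the data were seen, summed to 16.8 to 36.2 FPKM in MCT lungs and 17.7 to 36.8 FPKM in control lungs, with 0 of 4 tested genes called and Nkx2-5 at 0 in every sample. Actc1, the cardiac actin, was a large part of that sum, with 27.4, 9.35 and 26.5 FPKM in MCT lungs, against 7.40, 12.4 and 16.2 FPKM in control lungs. Without Actc1 the sum was 6.84, 7.47 and 9.72 FPKM in MCT lungs, against 10.3, 7.59 and 20.6 FPKM in control lungs, and of the 8 detected genes 6 had a lower mean in MCT lungs and 2, Actc1 and Tnnt2, a higher one. Among the 6, Myh6, a cardiac myosin gene, stood at 0.05, 0 and 0.01 FPKM in MCT lungs and at 0.12, 0.11 and 1.18 FPKM in control lungs. Each of the 6 was highest in control replicate 3, so their lower means in MCT lungs rest largely on that sample. Sln had 1 count there and was at 0 in every other sample. The part of these cell types in the levels of Pde3a and Pde5a was not tested beyond these values.

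Of 22 other phosphodiesterase genes measured, 14 were tested and 0 passed in either direction (edgeR), with a median log2 fold change of -0.28. Pde9a, which is specific for cyclic GMP, had 7.23, 15.7 and 9.07 FPKM in MCT lungs, against 15.4, 16.2 and 17.6 FPKM in control lungs. MCT replicate 2 lay among the controls, and the log2 fold change of -0.61 was not called (adjusted p = 0.160), but it was at -1.01 if that sample was left out (adjusted p = 0.00720). No other of 17 alternatives called Pde9a. Pde4b, a cyclic AMP phosphodiesterase, had -0.47 (adjusted p = 0.135). Pde6h had -1.15 (adjusted p = 0.133), and Pde6d, the most abundant of the tested ones, had 0.08 (adjusted p = 0.724). At an unadjusted p under 0.05 there were 3, Pde4b, Pde6h and Pde9a, and DESeq2 and limma-voom called 0 as well; 2 were called if MCT replicate 2 was left out and 1 if control replicate 1 was.

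Genes that scavenge nitric oxide or remove it from thiols had 1 of 8 tested members higher and 0 lower. Txnrd1, thioredoxin reductase, had 43.0, 30.1 and 37.1 FPKM in MCT lungs, against 26.1, 24.7 and 27.7 FPKM in control lungs, and rose 1.41-fold (edgeR, adjusted p = 0.0497), a call that ended if any 1 sample but MCT replicate 2 was left out (adjusted p = 0.0900 to 0.145). It was made under only 4 of 17 alternatives, and was lost with other scalings (adjusted p = 0.0505 and 0.0562), limma-voom, no filter, FPKM, summed ids and the replicate block as well. Hba-a2, an alpha globin gene whose reads may be shared with near-identical copies, had 1395, 4901 and 1406 FPKM in MCT lungs, against 1989.5, 2377 and 1513 FPKM in control lungs. MCT replicate 2 was the highest, and the log2 fold change of 0.40 (adjusted p = 0.619) turned to -0.49 if it was left out. Cygb, cytoglobin, had 0.66 (adjusted p = 0.109), called at 0.92 if MCT replicate 2 was left out (adjusted p = 0.00261) and under no other of 17 alternatives. Ngb, neuroglobin, had -1.21 (adjusted p = 0.153).

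Over the 7 lists of other nitric oxide and cyclic GMP genes 74 were tested, of which 9 rose and 1 fell, a share of 13.5% against 13.1% over the whole table. If MCT replicate 2 was left out 12 were higher and 9 lower, beside 1394 higher and 978 lower over the whole table, where all samples gave 1221 higher and 779 lower. If MCT replicate 1 was left out 2 were higher and 1 lower, beside 712 higher and 343 lower over the table, and if MCT replicate 3 was left out 2 and 0, beside 735 higher and 324 lower. If control replicate 2 was left out there were 2 and 1, beside 562 higher and 273 lower, and if control replicate 3 was left out 3 and 0, beside 481 higher and 212 lower.

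**Figure D4:**
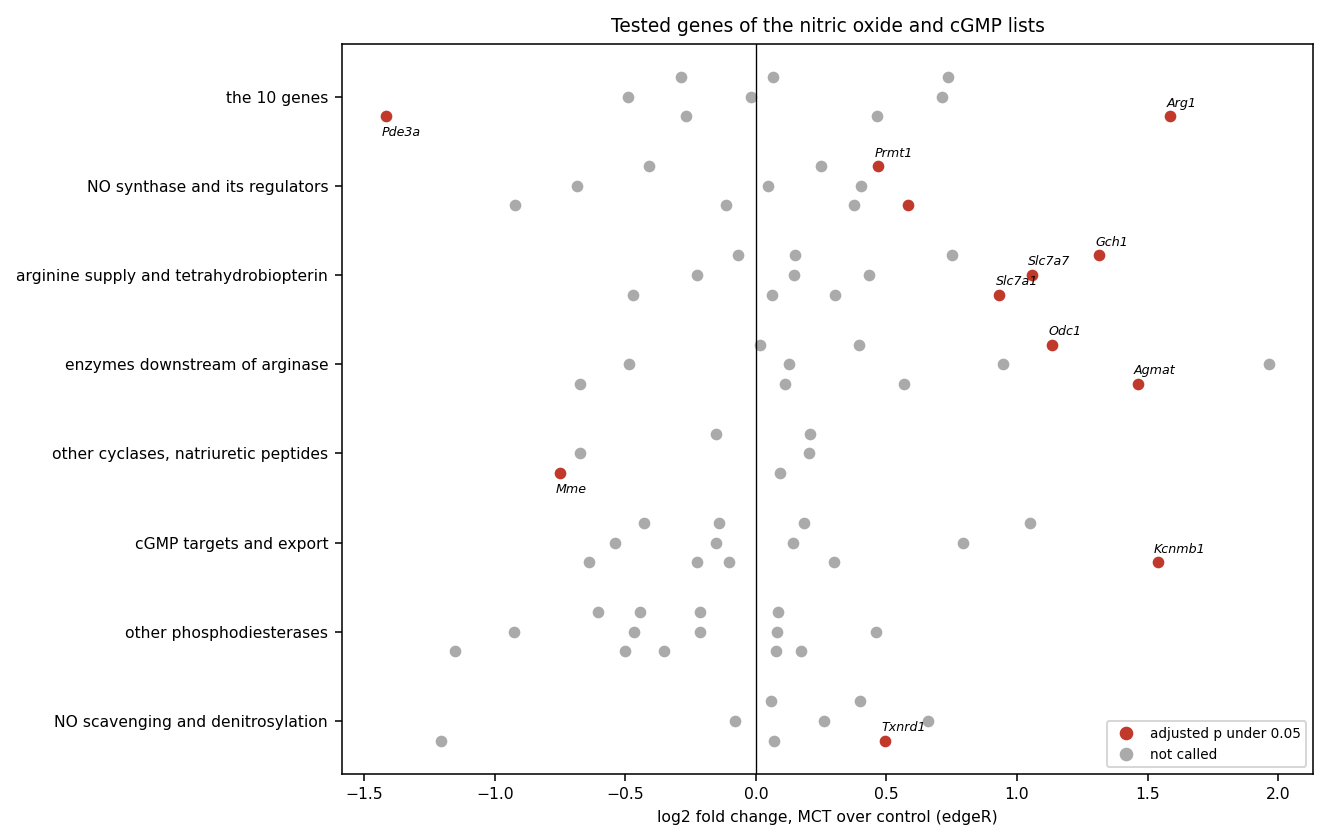
Log2 fold change of MCT over control for each tested gene, with the 10 genes on top and the 7 lists of other nitric oxide and cyclic GMP genes below. Called genes are red, 2 of the 10 genes and 10 of the 74 list genes, and those described in the text carry their names.

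By mean FPKM, Arg1 stood above Ddah1 in MCT lungs and below it in control lungs, but the order in MCT lungs rested on replicate 1, without which Arg1 averaged 14.6 and Ddah1 15.9 FPKM. Nos3 stood above Pde5a in MCT lungs and below it in control lungs. In MCT lungs Gucy1a1 averaged 36.6 ± 10.8, Gucy1b1 33.0 ± 7.94, Arg1 23.5 ± 16.1 and Ddah1 14.7 ± 2.41 FPKM (SD, n = 3), followed by Nos3, Pde5a and Prkg1 between 4.46 and 6.59 and by Nos2, Arg2 and Pde3a between 1.26 and 1.41. In control lungs Gucy1a1 averaged 45.1 ± 2.55, Gucy1b1 33.7 ± 1.67, Ddah1 17.8 ± 1.57 and Arg1 7.83 ± 0.777 FPKM (SD, n = 3), followed by Pde5a, Prkg1, Nos3 and Pde3a between 3.40 and 7.14 and by Arg2 and Nos2 at 1.01 and 0.853. In MCT lungs the ranges of Gucy1a1, Gucy1b1 and Arg1 overlapped, that of Ddah1 lay inside that of Arg1, that of Pde5a overlapped that of Nos3 and spanned that of Prkg1, and those of Nos2, Arg2 and Pde3a overlapped. In control lungs the ranges of Prkg1, Nos3 and Pde3a overlapped, as did those of Arg1 and Pde5a. That of Nos2 lay inside that of Arg2 there.

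**Figure D5:**
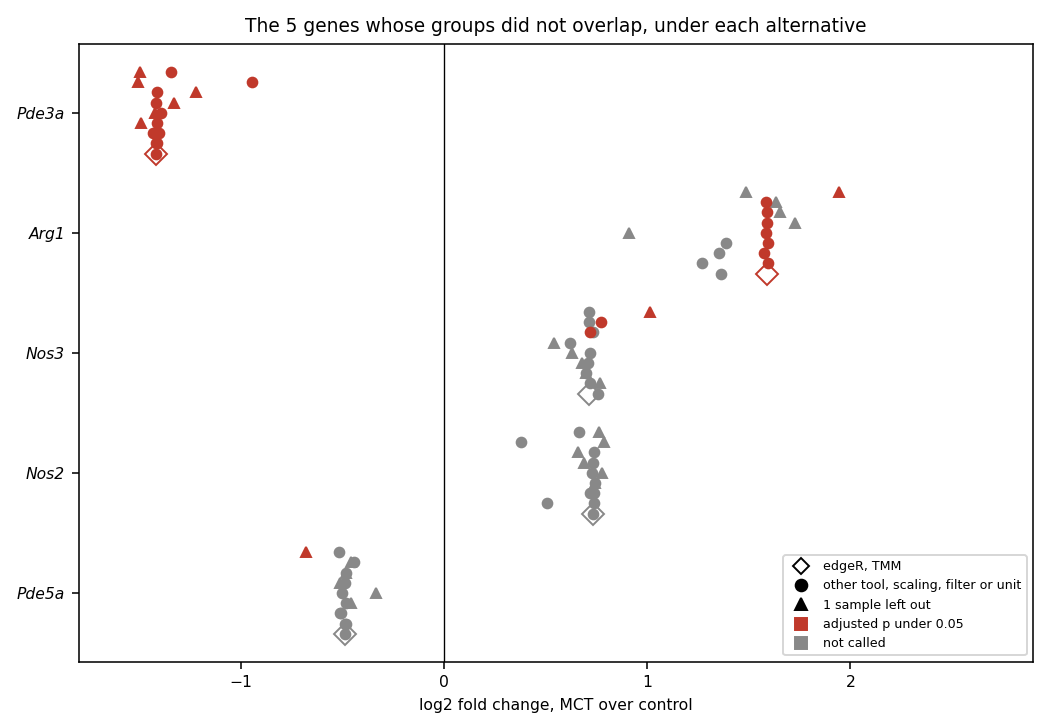
Log2 fold change of MCT over control for the 5 genes whose groups did not overlap, by the edgeR fit (open diamond), other tools, scalings, filters or units (circles) and with 1 sample left out (triangles); red marks an adjusted p under 0.05. Pde3a is called at every one of 17 alternatives, between -1.51 and -0.95, and Arg1 at 8 of them.

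Of the 10 genes only Pde3a was called under each of the 17 alternatives, which are other tools, scalings, filters, units and left-out samples, with adjusted p between 4.33e-06 and 0.0278. Arg1 was called under 8 of 17, Nos3 under 3, Gucy1a1 and Pde5a under 1 each, and Nos2, Gucy1b1, Prkg1, Arg2 and Ddah1 under 0.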

How the data were processed

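PolyA RNA of whole lung was sequenced in 3 MCT and 3 control samples, grouped by the sample labels. Bowtie2, TopHat2 2.0.3.12 and the rat build Rnor_6.0 are named in the submitters' processing notes; how reads were assigned to genes, and on which strand, is not stated there. For each gene and sample the deposited file has an FPKM value and an estimated count, per the file headers. Both were made by the authors; between 90.7% and 91.5% of the counts above 0 were whole, and all were rounded for the count tests. Exact zeros can be failed estimates, since 38 genes are listed at 0 in at least 1 library and at 100 counts or more in another. Intervals cover counting and library variation only.

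The whole table was fitted in edgeR 4.0.16 (R 4.3.3) by the quasi-likelihood test with TMM scaling, group alone as the design and filterByExpr (smallest count 10, smallest total 15), and p-values were Benjamini-Hochberg adjusted over 15250 genes. Adjusted p-values for genes are from this fit unless another tool is named. Ratios used log2(FPKM + 0.1) and marker comparisons log2 CPM with a prior count of 2, with two-sided exact permutation tests over samples. Alternatives were DESeq2 1.42.0, limma-voom (limma 3.58.1), other scalings and filters, limma on log2(FPKM + 1) and log2(FPKM + 0.1), unrounded counts, summed ids, a replicate block, the median marker, and each sample left out. The fit was tested on simulated data. No libraries of a group were alike enough to be 1 sample deposited again.

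The genes and lists were chosen with earlier results of these data known. Atg9b, Nos1, Marco, Myh6, Actc1, Tnnt2, Nkx2-5, Aldh18a1, Hsp90aa1, Emcn, Pecam1 and Vwf were named after their values were seen. Besides them and the 10 genes, the text names the 3 tested genes with the smallest p and the most abundant one of each pathway list. It also names some marker genes by a like rule, and the 3 genes most like Nos3, Gucy1b1 and Pde5a. One gene that this rule picks is counted but not reported here. Promoters are RefSeq's on GRCr8, which is not the build of the table.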

Additional observations from a re-analysis of the deposited data

How the results depend on the processing

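The fit with a replicate block is given although the numbers do not pair the samples: same-numbered MCT and control samples had correlations of their deviations between -0.0695 and -0.0024. Under the replicate block 0 of the 10 genes were higher and 1 lower, since Arg1 missed the threshold (adjusted p = 0.0552), 6 list genes were higher and 1 lower, and 917 and 546 of all tested genes. With DESeq2, 2 of the 10 genes were higher, 14 list genes higher and 3 lower, beside 1601 higher and 1182 lower over the whole table. On both FPKM scales 0 of the 10 genes were higher and 3 list genes lower. Over the whole table log2(FPKM + 1) gave 1087 higher and 730 lower, and log2(FPKM + 0.1) gave 1103 and 712. With 1 sample left out, the 10 genes gave 0 to 1 higher and 1 to 3 lower, the list genes 2 to 12 and 0 to 9, and all tested genes 481 to 1394 and 212 to 978. The log2 fold change then ran over -0.23 to 0.14 for Gucy1b1, -0.27 to 0.055 for Slc3a2, -0.25 to 0.11 for Nrarp, -0.14 to 0.051 for Rbms2, -0.49 to 0.70 for Hba-a2, -0.067 to 0.30 for Tcf21, -0.47 to 0.39 for Car4 and -0.012 to 0.74 for Npr3. Car4 was also at -0.093 with limma-voom, -0.087 under the replicate block, and -0.097 and -0.100 on the FPKM scales. The log2 ratio of Prkg1 over Gucy1b1 ran over -0.039 to 0.29 and that of Nos2 over Nos3 over -0.39 to 0.13. Relative to pericyte markers Gucy1b1 ran over -0.26 to 0.098 and Prkg1 over -0.046 to 0.095, with -0.13 against the median marker. Relative to neutrophil markers Nos2 ran over -0.73 to 0.21, with 0.18 against the median marker, and Arg2 over -1.10 to 0.19. The cause was not tested. Low counts limit what can be seen for Arg2 and Nos2.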

Other observations

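Nos1, the neuronal nitric oxide synthase, was listed with 16, 9 and 12 counts in MCT lungs and at 0 in all 3 control lungs. It did not pass the filter on low counts, and with no such filter it was called (edgeR, adjusted p = 0.0119 over 19416 genes). That call sets low counts against exact zeros, which can be failed estimates here, in a gene named after its values were seen. Atg9b, which overlaps Nos3 in the RefSeq annotation, had 22, 5 and 2 counts in MCT lungs and 4, 2 and 0 in control lungs.

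Aldh18a1, an enzyme of proline and ornithine synthesis, had 483.06, 456 and 449.35 estimated counts in MCT lungs and 0, 156.97 and 215 in control lungs. Hsp90aa1, a chaperone gene active in most cells, was listed at 0 in 5 samples and at 392.71 estimated counts in control replicate 3, so no fold is given for genes listed at 0.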
